A study of Mus musculus with 1 sample.

Results

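The 35 genes described here are Ndrg1 and 34 other genes of the cellular response to low oxygen and of glycolysis. They are a list of gene symbols, picked by name out of the 32285 genes of the matrix. The rule uses no measured value, but the list was drawn up with earlier results of these data known. All 35 symbols were found in the file. Aldoa occurred in 2 rows with different identifiers, of which 1 held every Aldoa UMI and the other held 0. The list holds 18 genes of glucose entry, glycolysis and lactate metabolism, 16 other genes known to respond to hypoxia, and Ndrg1.

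The cells came from 1 sample of wild type mouse gastric organoids that received no treatment. Organoids are epithelial cells grown in a gel, where they form hollow balls. Organoids were taken on day 7 after seeding and made into single cells in 0.05% trypsin-EDTA for 30 min, and RNA was captured with a 10x Genomics 3' kit. Only 1 library was analysed here, so nothing could be compared between replicates or conditions. The labels name the cells epithelial and the tissue stomach, and do not give the number of mice or cultures pooled.

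Cells that lack oxygen stabilise the transcription factor HIF, because the prolyl hydroxylases that mark its alpha subunit for destruction need oxygen to work. HIF then binds short DNA elements near its target genes, among them most glycolytic enzymes, which let a cell make ATP without respiration. Ndrg1 encodes a cytoplasmic protein that is a widely used marker of hypoxia and is also raised by differentiation and stress in epithelia.

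To show the element that HIF recognises, the bases just before the transcription start of members were read from RefSeq promoter windows on build GRCm38.p6. The core of the hypoxia response element is ACGTG, and GCGTG is its common variant. The 7 windows below are 250 bases long, end just before the RefSeq start and are written 5' to 3' on the gene's strand. Capitals mark ACGTG or GCGTG on either strand, so that CACGT and CACGC are their reverse complements. Shown are the 5 genes with the highest and the 2 with the lowest ratio between high-Ndrg1 and low-Ndrg1 cells, given further on, among the 8 members that had 1 window, at least 1000 UMIs and at most 30 bases inside an annotated exon.
Bnip3 (chr7:138909507-138909756, minus strand): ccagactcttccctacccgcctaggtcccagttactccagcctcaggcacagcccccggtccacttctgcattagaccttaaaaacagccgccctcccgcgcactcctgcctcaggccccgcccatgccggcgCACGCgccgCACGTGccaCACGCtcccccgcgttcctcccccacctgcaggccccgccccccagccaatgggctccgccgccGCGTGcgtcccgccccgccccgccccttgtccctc
Pgk1 (chrX:106186850-106187099, plus strand): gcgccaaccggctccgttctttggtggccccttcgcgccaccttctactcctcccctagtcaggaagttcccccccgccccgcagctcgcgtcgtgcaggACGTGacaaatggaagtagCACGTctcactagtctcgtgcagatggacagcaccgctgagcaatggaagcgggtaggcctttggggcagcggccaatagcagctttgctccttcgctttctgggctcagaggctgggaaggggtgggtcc
P4ha2 (chr11:54100674-54100923, plus strand): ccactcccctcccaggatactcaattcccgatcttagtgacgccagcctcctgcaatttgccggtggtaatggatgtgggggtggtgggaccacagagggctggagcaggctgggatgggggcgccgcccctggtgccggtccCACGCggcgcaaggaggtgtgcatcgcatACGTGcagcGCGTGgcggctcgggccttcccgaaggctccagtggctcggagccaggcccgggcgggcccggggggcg
Egln3 (chr12:54203875-54204124, minus strand): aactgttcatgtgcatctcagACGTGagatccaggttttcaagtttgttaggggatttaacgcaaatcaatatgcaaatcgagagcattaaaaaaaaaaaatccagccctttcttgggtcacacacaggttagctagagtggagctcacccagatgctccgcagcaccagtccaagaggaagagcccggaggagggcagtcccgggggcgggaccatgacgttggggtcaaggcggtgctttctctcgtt
Gapdh (chr6:125165774-125166023, minus strand): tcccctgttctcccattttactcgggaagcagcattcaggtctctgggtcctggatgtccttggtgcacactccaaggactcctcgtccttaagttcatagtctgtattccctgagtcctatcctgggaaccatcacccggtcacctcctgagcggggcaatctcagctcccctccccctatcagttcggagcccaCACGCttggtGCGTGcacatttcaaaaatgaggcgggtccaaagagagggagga
Pgam1 (chr19:41911621-41911870, plus strand): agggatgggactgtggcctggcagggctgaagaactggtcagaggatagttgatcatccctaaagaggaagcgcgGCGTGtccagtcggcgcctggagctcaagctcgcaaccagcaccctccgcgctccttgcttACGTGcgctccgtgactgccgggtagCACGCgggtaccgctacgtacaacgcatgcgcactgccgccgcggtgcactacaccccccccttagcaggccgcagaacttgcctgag
Pfkp (chr13:6648772-6649021, minus strand): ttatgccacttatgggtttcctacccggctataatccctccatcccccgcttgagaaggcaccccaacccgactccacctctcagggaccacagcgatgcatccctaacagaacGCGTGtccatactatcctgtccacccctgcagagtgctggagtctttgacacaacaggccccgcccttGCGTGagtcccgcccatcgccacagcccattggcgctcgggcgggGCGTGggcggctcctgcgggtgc

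In the Bnip3 window the palindrome CACGTG gives the core on both strands. The Pgk1 window holds ACGTG on both strands, 150 and 131 bases before the start. P4ha2, Egln3 and Pgam1 each have 1 ACGTG, and the Gapdh and Pfkp windows have GCGTG only. RefSeq windows were found for 32 of the 35 members, Ero1l by its newer symbol Ero1a. Ndrg1, Bnip3l and Plod2 had no entry.

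Counted over both strands, ACGTG lay in the windows of 21 of the 32 genes, or 65.6%, against 18.5% of all 27025 genes with a window and 28.1% of the 1736 such genes with at least 1000 UMIs in these cells. By single windows of equal length the shares were 51.0% of 49 member windows and 16.6% of 32851 in all. Either motif was present in 93.8% of member genes, 41.5% of all genes and 67.8% of the genes with at least 1000 UMIs. Since the list is made of known hypoxia-responsive genes, the share describes the list and was not tested, and a match is no evidence of binding.

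Each UMI (unique molecular identifier) counts 1 captured RNA molecule at its 3' end. A gene's level is stated in CPM, meaning its UMIs per 1000000 gene UMIs summed over the cells in question, which needs no correction for length in a 3' assay. The library had 20236916 gene UMIs in 1991 barcodes. Barcodes with 500 or more genes and no more than 20% mitochondrial UMIs were kept, and these 1892 cells had a median of 8512.5 UMIs (range 890 to 47183) and a median of 2220 genes. The epithelial markers Epcam, Krt8 and Krt18 had a UMI in 96.6%, 97.9% and 99.6% of cells. Of the 12 fibroblast, endothelial and immune markers, 5 were at 0 UMIs, which by a limit of 3 counts allows up to 0.159% of cells with a UMI, and the most abundant of the others, Csf1r, had 13 UMIs. Gastric surface cell genes were uneven, with Tff1 in 54.7% and Muc5ac in 2.38% of cells. Of the parietal cell genes, Atp4b was at 0 and Atp4a had 29 UMIs, in 1.43% of cells. All intervals are 95% intervals for counting error only. Free RNA in the droplets was not estimated for these genes, and no cell type that should lack them was present for comparison.

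Together the 35 genes held 205072 UMIs, a summed level of 10193 CPM (10149 to 10237) or 1.02% of all gene UMIs. The enzymes and transporters of glycolysis and lactate made up most of it, with 8579 CPM for 18 genes, against 1560 CPM for the 16 other hypoxia genes. Gapdh alone gave 25.01% of the members' UMIs. Gapdh, Aldoa and Pgk1 together gave 52.3%. The summed level therefore follows a few abundant enzymes, and the role groups are given separately below.

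Ndrg1 (chr15:66929318-66969640, minus strand, GRCm38, GENCODE release M21) had 1099 UMIs, a level of 54.6 CPM (51.4 to 58.0). A UMI was found in 547 of 1892 cells, or 28.9%, and no cell had more than 12. The remaining 1345 cells had none, and differences among them lie below the depth of the data.

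Glucose entry and the upper steps of glycolysis were represented by moderate levels. Slc2a1, the glucose transporter GLUT1, was at 37.9 CPM and had a UMI in 29.1% of cells. Hexokinases trap glucose as glucose-6-phosphate, and Hk1, the form usually regarded as constitutive, was at 78.4 CPM beside 58.1 CPM for Hk2, the inducible form. Gpi1, the isomerase of the next step, was the highest of the group at 385 CPM. Of the 3 phosphofructokinase subunits that commit sugar to glycolysis, Pfkp was at 89.8 CPM, Pfkl at 65.6 CPM and Pfkm at 15.5 CPM. Pfkm overlaps the annotated gene Gm26513 on the same strand, so its count is uncertain. Pfkfb3, which makes the activator of phosphofructokinase, was at 12.6 CPM.

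The lower steps held the most abundant members. Gapdh, the glyceraldehyde phosphate dehydrogenase, was at 2549 CPM, with a median of 19.5 UMIs per cell. Aldoa, the aldolase that splits the sugar, was at 1755 CPM, and Pgk1, the first ATP-forming kinase, at 1026 CPM. A UMI of each was found in 97.0% to 99.4% of cells. Pkm (pyruvate kinase) at 718 CPM, Tpi1 (triose phosphate isomerase) at 444 CPM, Pgam1 (phosphoglycerate mutase) at 338 CPM and Eno1 (enolase) at 280 CPM followed. Enolase has a near-identical copy, Eno1b, with 59 UMIs against 5641 for Eno1, and reads may have been divided between them. Ldha, which turns pyruvate into lactate, was at 685 CPM, whereas Slc16a3, the lactate exporter MCT4, was at 14.9 CPM and Pdk1, the kinase that closes pyruvate dehydrogenase, at 26.5 CPM.

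Among the other hypoxia genes, those acting at mitochondria were highest. Bnip3 and Bnip3l, receptors for the removal of mitochondria by autophagy, were at 285 and 247 CPM, and Higd1a, a small protein of the respiratory chain supercomplexes, at 214 CPM. Ero1l, the oxidase that forms disulfide bonds in the endoplasmic reticulum, was also at 214 CPM. Car9, the surface carbonic anhydrase that handles acid, was at 148 CPM. Egln3 and Egln1, the oxygen sensors PHD3 and PHD2 that hydroxylate HIF, were at 122 and 53.7 CPM. Mxi1, an antagonist of MYC, was at 58.4 CPM and Kdm3a, a histone demethylase, at 15.3 CPM. The collagen prolyl hydroxylase subunits P4ha2 and P4ha1 were at 50.9 and 46.1 CPM. Vegfa, the angiogenic growth factor, was at 40.9 CPM, Ankrd37 at 31.5 CPM and Ddit4, an inhibitor of mTORC1, at 29.4 CPM. Adm, the vasodilator adrenomedullin, was at 3.08 CPM from 62 UMIs, and Plod2, a collagen lysyl hydroxylase, at 0.696 CPM from 14 UMIs. Adm and Plod2 were the 2 members with fewer than 100 UMIs and are left out of the counts below.

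**Figure D1:**
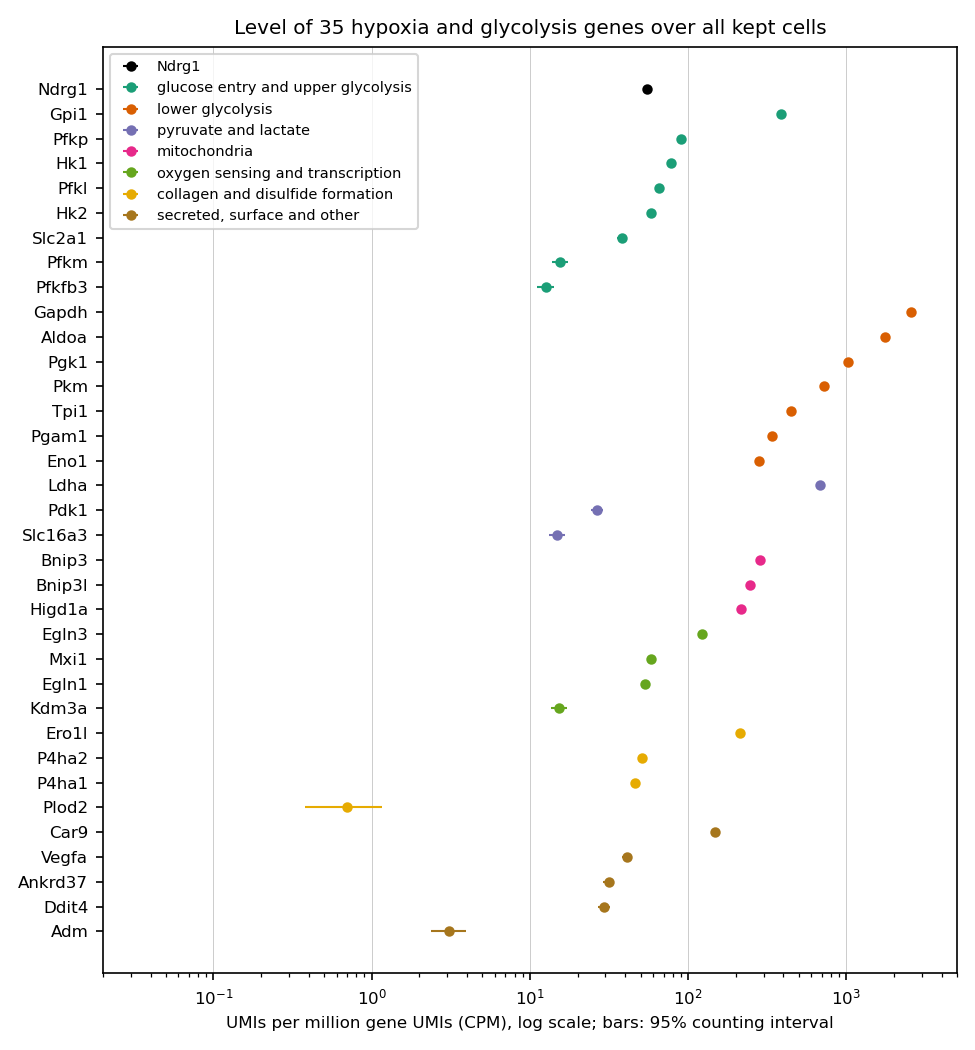
Level of each of the 35 genes over 1892 cells, in CPM on a log axis, coloured by role, with 95% counting intervals. Lower glycolysis holds the highest genes, up to Gapdh at 2549 CPM, and Adm and Plod2 lie at 3.08 and 0.696 CPM.

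Cells differed widely in the summed level. The share of a cell's UMIs from the members was 0.425% at the 5th percentile, 0.944% at the median and 1.91% at the 95th percentile. To take depth and counting noise out of this spread, each cell was thinned to 3000 UMIs, which kept 1835 cells and left out 57. The coefficient of variation (SD over mean) left after the counting part was removed was 0.440 for the members together. It was 0.440 for the glycolysis and lactate genes and 0.571 for the other hypoxia genes. By role it was lowest for glucose entry and upper glycolysis, 0.365, and highest for collagen and disulfide formation, 0.996. Within the latter group Ero1l had a value of 1.33, P4ha1 0.851 and P4ha2 0.402. Ndrg1 itself had 1.61. No variation beyond counting was found for Hk2 and Vegfa at this depth, nor for the rare Adm and Plod2.

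The relation of the members to Ndrg1 was described first by 2 groups of 473 cells, those with the highest and those with the lowest Ndrg1 per 10000 UMIs. All 473 high-Ndrg1 cells had a UMI of it, with a level of 179 CPM. The low-Ndrg1 cells are drawn in barcode order from the 1345 cells that had none, so they are an arbitrary set of those cells. The high group was deeper, with a median of 10801 against 7834 UMIs per cell. Mitochondrial shares were 3.95% and 4.08%, ribosomal protein shares 35.8% and 34.7%, and cells called in S or G2/M phase 20.1% (16.6 to 24.0) and 23.9% (20.1 to 28.0). Summed handling-stress genes such as Fos were at 5515 CPM (5454 to 5576) in high and 5937 CPM (5868 to 6008) in low cells. The cycling markers Mki67 and Top2a summed to 63.2 CPM (56.9 to 70.1) in high and 106 CPM (97.1 to 116) in low cells. The part of the handling-stress genes and of these markers in the results was not tested. Values that take depth, phase calls or the ribosomal and mitochondrial UMIs into account stand beside the first ratio.

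The sum of the 34 other members was higher in the high-Ndrg1 cells, with a level of 13156 CPM (13062 to 13250) against 8573 CPM (8489 to 8657), a ratio of 1.53 (1.52 to 1.55). Per cell, the members' share of UMIs had a median of 1.30% in high and 0.848% in low cells. The middle ranges overlapped narrowly, from 1.01% to 1.64% in high cells and from 0.623% to 1.10% in low cells between the 25th and 75th percentiles. The ratio was 1.48 (1.465 to 1.504) for the glycolysis and lactate genes and 1.83 (1.78 to 1.89) for the other hypoxia genes. Of the 32 members with at least 100 UMIs, 15 had a ratio of at least 1.5, where 5.84% of all 8652 such genes did, and 0 had a ratio of 1 over 1.5 or less, where 7.79% of all genes did. With a minimum of 1000 UMIs the numbers were 12 of 22 members and 2.72% of 2173 genes. The median ratio was 1.40 over the members and 0.995 over all genes. Hk1 and Eno1 were the 2 members of these 32 below 1. The summed ratio was 1.52 when cells in a called S or G2/M phase were left out, and per 1000000 UMIs outside ribosomal and mitochondrial genes it was 1.57. With both groups taken inside 10 depth classes, so that the median depths were 8456 and 8534.5 UMIs, the summed ratio was 1.54 and 14 members passed 1.5, beside 5.54% of all genes. After thinning to 3000 UMIs, when only 239 of the 459 cells on the high side still had an Ndrg1 UMI, the summed ratio was 1.27 and 7 of 32 members passed, beside 10.4% of 8650 genes. Of the 15 members past 1.5 before thinning 5 still passed, namely Ero1l, Slc2a1, Ankrd37, Egln1 and Mxi1, and 10 did not. Hk2 and Pfkfb3 passed only after thinning. The minimum of 100 UMIs is on counts before thinning, and no interval was computed for thinned ratios. Pfkfb3, at a mean of 0.0322 UMIs per cell after thinning, had a full-depth ratio of 1.09 (0.763 to 1.57). With a minimum of 1000 UMIs, 4 of 22 members passed after thinning, beside 0.966% of 2173 genes. Computed apart in the cells of each multiplexing tag, CMO301 and CMO302, 13 of 32 members passed in both, beside 2.84% of 8647 genes, and 30 were above 1 in both, beside 34.1%.

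Among the other hypoxia genes, 10 of the 14 with at least 100 UMIs passed 1.5, beside 5.84% of all genes, with a median ratio of 1.69. After thinning 4 of 14 passed, beside 10.4% of all genes. Ero1l was the most different member, at 376 CPM (360 to 392) in high and 136 CPM (126 to 147) in low cells, a ratio of 2.76 (2.52 to 3.02), and had a UMI in 85.0% and 58.4% of those cells. Bnip3 was at 457 CPM in high and 205 CPM in low cells, a ratio of 2.23 (2.07 to 2.40), and of 1.45 after thinning. Its relative Bnip3l, at a similar overall level, had a ratio of 1.26 (1.17 to 1.37), whose interval did not meet that of Bnip3. Higd1a had a ratio of 1.86 (1.71 to 2.03), and of 1.26 after thinning. For Ero1l the thinned ratio was 2.23.

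Among the oxygen sensors that are members, Egln1 had a ratio of 2.06 (1.73 to 2.47) and Egln3 of 1.66 (1.48 to 1.85), which thinning left at 1.63 and 1.38. Mxi1 followed with 1.94 (1.64 to 2.31). For Kdm3a, with 308 UMIs in all, the ratio was 1.27 (0.933 to 1.74), an interval that includes 1. P4ha2 had 1.72 (1.45 to 2.04) and P4ha1 1.42 (1.19 to 1.71), with overlapping intervals. Car9 was at 218 CPM in high and 123 CPM in low cells, a ratio of 1.77 (1.60 to 1.95), and Ankrd37 and Vegfa had 1.65 and 1.59. After thinning the ratio was 1.08 for P4ha2, 1.27 for Car9 and 0.931 for Vegfa, all under 1.5. Ddit4, which stress signals other than hypoxia also raise, had 1.12 (0.902 to 1.40).

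Glycolysis genes had lower ratios, with 5 of 18 past 1.5, beside 5.84% of all genes, and a median ratio of 1.25. After thinning 3 of 18 passed (Slc2a1, Hk2 and Pfkfb3, the last from few UMIs), beside 10.4% of all genes. Pgk1 was at 1435 CPM in high and 825 CPM in low cells, a ratio of 1.74 (1.67 to 1.81). Slc2a1 followed with 1.72 (1.40 to 2.12), Aldoa with 1.63 (1.58 to 1.68), Gapdh with 1.58 (1.55 to 1.62) and Gpi1 with 1.54 (1.45 to 1.64). Of these 5, Slc2a1 had 1.95 after thinning and the other four 1.28 to 1.36, under 1.5. Pkm, Ldha, Tpi1 and Pgam1 had ratios of 1.32, 1.30, 1.22 and 1.22, each with an interval above 1. Hk1 and Eno1 did not differ beyond counting error, at 76.7 against 78.8 CPM (ratio 0.974, 0.846 to 1.12) and 281 against 283 CPM (ratio 0.995, 0.924 to 1.07). Hk2 had 1.22 (1.04 to 1.45). The upper enzymes Pfkm and Pfkfb3 and the exporter Slc16a3 had 253 to 311 UMIs each, and intervals that included 1.

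**Figure D2:**
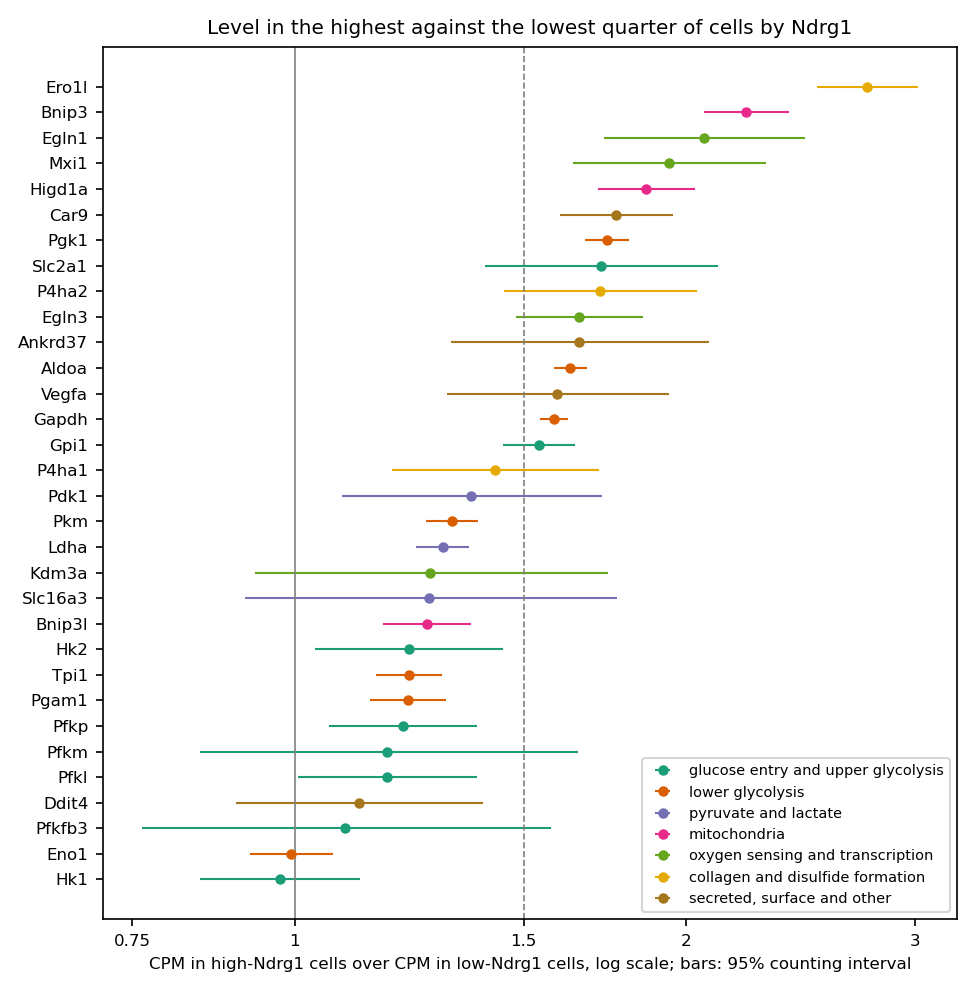
Ratio of each member's level in the 473 high-Ndrg1 to that in the 473 low-Ndrg1 cells, on a log axis with 95% counting intervals, coloured by role, with lines at 1 and 1.5. The 15 genes from Gpi1 (1.54) up to Ero1l (2.76) lie at or beyond 1.5, and Eno1 and Hk1 lie at 1.

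Levels were also read by the size of the Ndrg1 value. The 547 cells with an Ndrg1 UMI were ordered by Ndrg1 per 10000 UMIs and cut into classes of 183, 182 and 182 cells, beside the 1345 cells without one. Of 32 members, 21 were higher in each next class, beside 11.2% of all 8652 genes. Ero1l was at 145 CPM in cells without Ndrg1, then at 214, 317 and 579 CPM from the lowest to the highest class. Bnip3 was at 212, 295, 415 and 620 CPM, Higd1a at 177, 215, 286 and 393 CPM, and Gapdh at 2185, 2707, 3247 and 3983 CPM. Eno1 showed no such order, at 279, 287, 272 and 288 CPM, nor did Hk1, at 78.7, 87.5, 65.2 and 74.8 CPM. The other members out of order were Hk2, Pfkp, Pfkm, Pfkfb3, Slc16a3, Bnip3l, Kdm3a, Vegfa and Ddit4. Depth ran the other way among the classes with Ndrg1, with medians of 16712, 10019.5 and 8181.5 UMIs, because 1 UMI is a smaller level in a deeper cell. Cells without Ndrg1 had a median of 7688 UMIs. The summed collagen and disulfide group went from 229 to 752 CPM and the summed lower glycolysis group from 6153 to 10642 CPM between the first and last of the 4 classes.

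**Figure D3:**
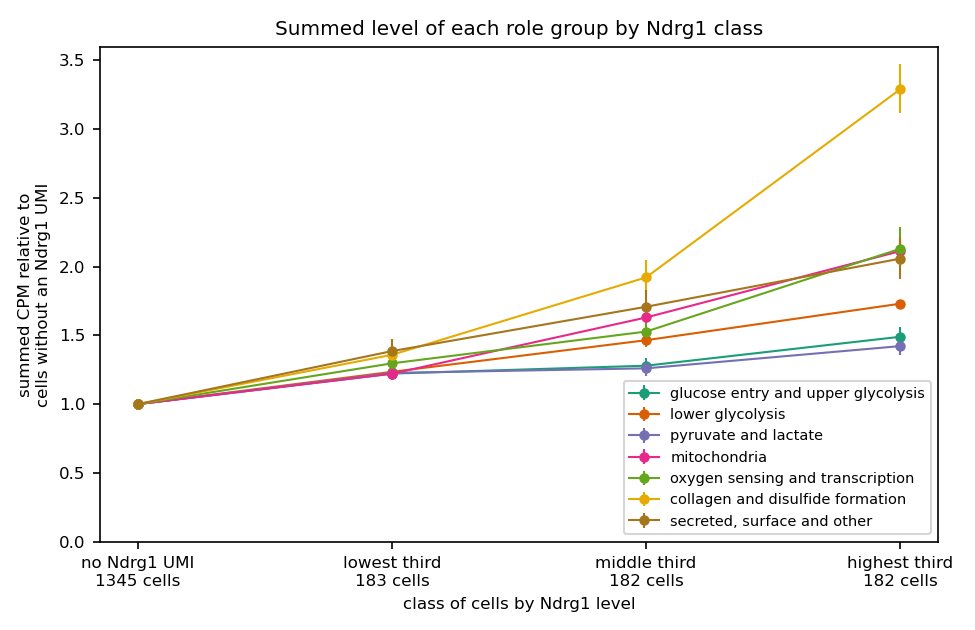
Summed level of each role group, relative to the 1345 cells without an Ndrg1 UMI, in the 3 classes of cells with one, with 95% counting intervals. Every group is higher in the top class of 182 cells, most of all collagen and disulfide formation, which goes from 229 to 752 CPM.

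Correlations across cells also put Ero1l and Bnip3 first among the members. They are descriptions over 1892 cells of 1 library that share depth differences, of ln(UMIs per 10000 + 1), with no test. Among the 2173 genes with at least 1000 UMIs, Ero1l was the gene most correlated with Ndrg1, with Pearson r = 0.402. Bnip3 (0.380), Aldoa (0.347), Pgk1 (0.334) and Gapdh (0.320) held ranks 3 to 6. Of the first 10 genes 5 were members, and of the first 50 genes 13 were. An r of at least 0.2 was reached by 11 of 22 members, beside 1.7% of all 2173 genes. Over the 32 members with at least 100 UMIs the median r was 0.141, against 0.00428 over all genes. The members' median r was 0.0745 after thinning and 0.0882 with cluster means taken out. Hk1 had the lowest r of the 32 members at full depth, -0.0179.

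The 10 genes with the highest r with Ndrg1 were also read outside the members and the further pathway lists described below. They began with Eif1 (0.388), a translation initiation factor, and the noncoding RNAs Epb41l4aos (0.306) and 1110038B12Rik (0.292). Mt1 (0.279), a metallothionein, and Gabarap (0.267), an autophagy protein, came next, then Rabac1, Ccni, Serpinb6a, Lgals3 and Sh3glb1 (0.241). Mif, a hypoxia-responsive gene of the further lists, had r = 0.243, above Sh3glb1. Mt1 was at 2714 CPM in high and 1328 CPM in low cells, a ratio of 2.04 (1.98 to 2.10), and Eif1 at 3293 and 2070 CPM.

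Members also varied with each other, though unevenly. Over all 528 pairs of the 33 members with at least 100 UMIs the median r was 0.0679, and over the 253 pairs of members with at least 1000 UMIs it was 0.141. Over the 528 pairs it was 0.0340 after thinning and 0.0470 with cluster means taken out. The strongest pairs were Gapdh with Aldoa (0.595), Pgk1 with Aldoa (0.586), Bnip3 with Aldoa (0.527) and Pgk1 with Gapdh (0.521). Bnip3, a gene of mitochondrial turnover, had a median r of 0.207 with the other members, the highest of all 33. Hk1 and Hk2 stood outside, with median r of 0.0137 and 0.0196 and no partner above 0.0884. The lowest pair was Gapdh with Hk1 at -0.0707. Low counts lower every r, so small values for genes such as Pfkfb3 or Kdm3a are no finding.

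**Figure D4:**
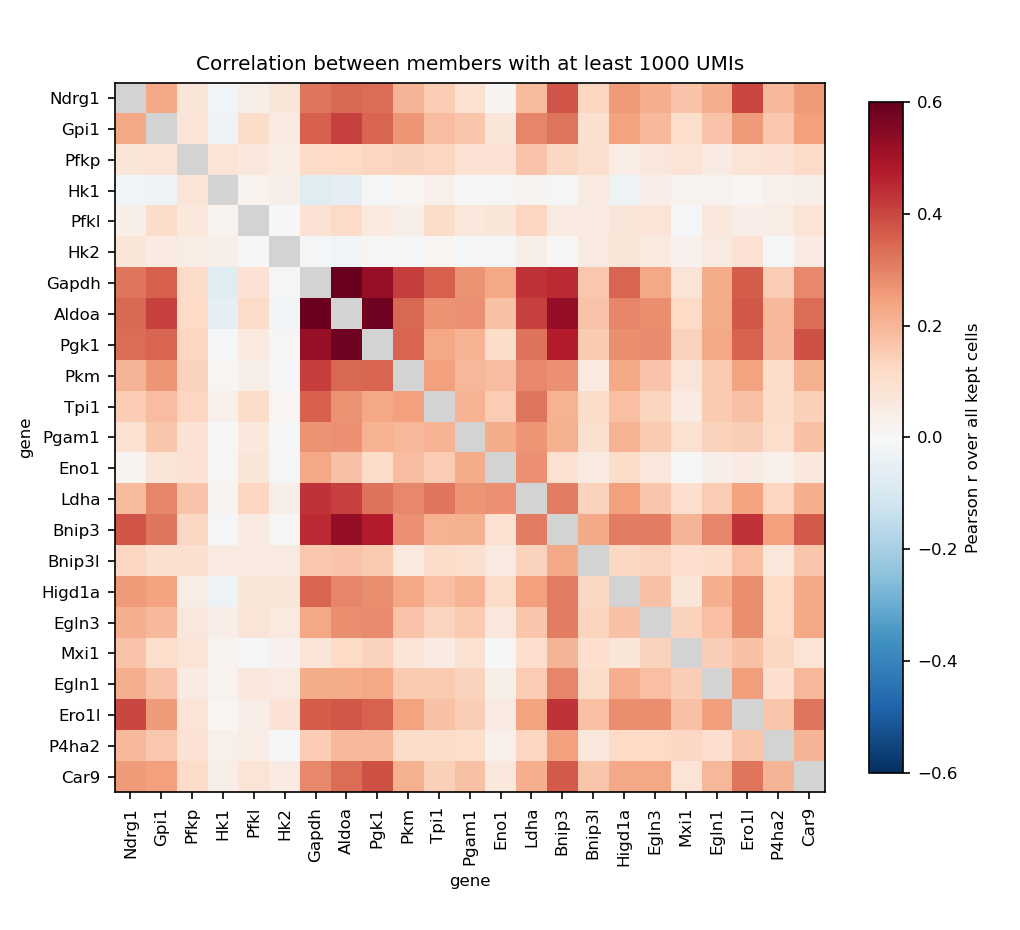
Pearson correlation over 1892 cells between the 23 members with at least 1000 UMIs, in order of role, on a colour scale centred at 0. A block of Gapdh, Aldoa, Pgk1, Bnip3 and Ero1l is visible, with Gapdh and Aldoa at 0.595, and the rows of Hk1 and Hk2 stay near 0.

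The summed glycolysis and lactate genes and the summed other hypoxia genes, which share no gene, had r = 0.602 (Spearman's rho 0.646) over 1892 cells and r = 0.487 after thinning. As a further description, chosen after the data had been seen, cells were ordered by the summed other hypoxia genes alone. The highest and lowest 473 cells had similar depth, with medians of 8034 and 8209 UMIs. The 18 glycolysis and lactate genes summed to 11950 CPM in the former and 5589 CPM in the latter, a ratio of 2.14 (2.11 to 2.17). Of these genes 12 of 18 passed 1.5, where 13.7% of 8639 genes did, with a median ratio of 1.78 against 1.04 over all genes. Slc16a3, which had no clear relation to Ndrg1, was at 20.4 CPM (16.5 to 24.9) and 5.59 CPM (3.68 to 8.13), a ratio of 3.64 (2.36 to 5.81). Pgk1 had a ratio of 3.02, Aldoa of 2.53, Gpi1 of 2.31, Slc2a1 of 2.29 and Gapdh of 2.21. Hk1 again did not differ, at 76.1 and 75.1 CPM, and Eno1 had 1.19 (1.10 to 1.29). Ndrg1 was at 142 CPM in the upper and 12.6 CPM in the lower cells, a ratio of 11.3 (8.65 to 14.9).

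Clusters of cells were made without the members and the further pathway genes, so that members did not define them. They are given by number and leading genes. Ndrg1 was at 119 CPM in cluster 2 (395 cells, led by Ly6m, Sprr1a, Cnfn, Wincr1 and Ahnak2) and at 109 CPM in cluster 3 (325 cells, led by Mgarp, Mt1, 2610528A11Rik, Ddit3 and 5430416N02Rik). In the other 5 clusters it was between 16.2 and 30.4 CPM. Clusters 2 and 3 held 44.8% and 28.3% of the high-Ndrg1 cells.

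The summed members were highest in the same clusters, at 14333 CPM (14173 to 14495) in cluster 3 and 13475 CPM (13375 to 13575) in cluster 2. Cluster 5 (238 cells, led by Psca, 2210011C24Rik, Prss22, Tnfrsf4 and Pcolce) was at 10553 CPM, and the mitotic cluster 6 (90 cells, with Aspm, Knl1, Spc25 and Ccnb1 among its leading genes) at 9121 CPM. Cluster 4 (292 cells, led by Cxcl2, Cxcl5, Mgat4c, Fam107a and Trpm6) was at 8371 CPM. The lowest were cluster 1 (489 cells, led by Aox3, Scgb3a1, Cbr2, Anpep and Trf) at 6999 CPM and cluster 7 (63 cells, led by Cyba, Reg3g, Gm3776, Gsta2 and Gsta1) at 6847 CPM. The highest and lowest differed by 2.09 times. Median depth was 12062 UMIs in cluster 2 and 5796 in cluster 3, beside 7517 in cluster 1 and 14281 in cluster 7. The part of depth in these levels was not tested.

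Of the 33 members with at least 100 UMIs, 14 were highest in cluster 2 and 13 in cluster 3, and 18 were lowest in cluster 7 and 9 in cluster 1. Of all 8653 genes with as many UMIs, 13.6% were highest in cluster 2 and 7.75% in cluster 3, and 19.6% were lowest in cluster 7 and 10.2% in cluster 1. Bnip3 was at 546 CPM in cluster 3, 463 CPM in cluster 2 and 106 CPM in cluster 7. Ero1l was at 364 and 360 CPM in clusters 2 and 3, within counting error of each other, and at 99.8 CPM in cluster 1. Car9 and Vegfa separated them, at 264 and 65.0 CPM in cluster 2 against 177 and 39.9 CPM in cluster 3. Aldoa and Gapdh were higher in cluster 3, at 2834 and 3852 CPM, than in cluster 2, at 2383 and 3350 CPM.

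A few members had another order. Hk1 was highest in cluster 4, at 112 CPM (101 to 122), and lowest in cluster 3, at 46.9 CPM (38.2 to 57.0). Pfkfb3 and Pfkm were also highest in cluster 4, at 18.7 and 19.0 CPM. Hk2 was highest in cluster 7, at 85.3 CPM (68.4 to 105). Eno1 at 363 CPM and Slc16a3 at 26.8 CPM (20.2 to 35.0) were highest in cluster 5, where Ndrg1 was at 17.9 CPM. Slc16a3 was at 7.47 CPM in cluster 1. Higd1a had 259 CPM in cluster 7 beside 294 CPM for cluster 2, a smaller gap than that of Bnip3.

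**Figure D5:**
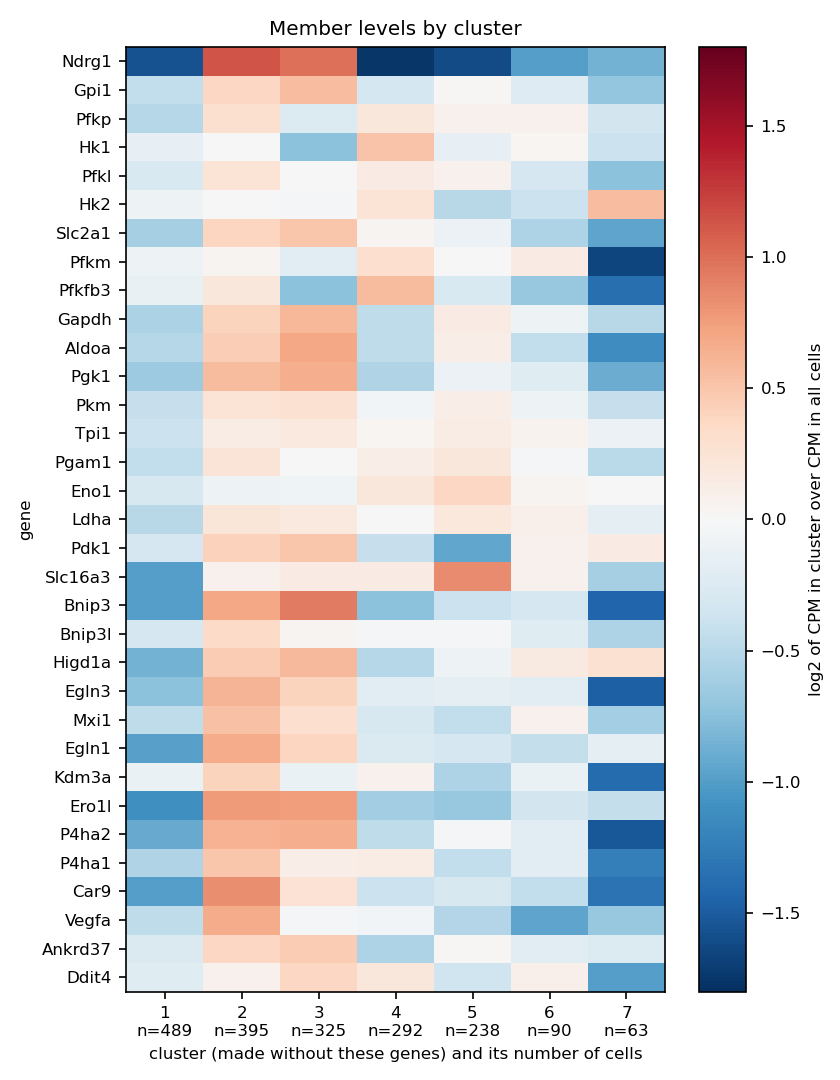
Level of each of the 33 members with at least 100 UMIs in each cluster relative to all cells, as a log2 colour scale, with the number of cells under each cluster. Most rows are highest in clusters 2 and 3, whereas Hk1 is highest in cluster 4 (112 CPM) and Slc16a3 in cluster 5 (26.8 CPM).

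The relation to Ndrg1 was also present inside clusters, at a smaller size than over all cells in clusters 1 to 6 and at a larger one in cluster 7. Between cells with and without an Ndrg1 UMI, the ratio of the summed other members was 1.20 (1.18 to 1.22) in cluster 2 and 1.22 (1.19 to 1.25) for cluster 3. It was 1.15 in cluster 1, and clusters 4 and 5 had 1.12 and 1.19. The mitotic cluster 6 had 1.35 (1.30 to 1.40). Cluster 7 stood apart with 2.04 (1.95 to 2.14), from 15 cells with a UMI among 63. There all 32 members were higher in the cells with a UMI, beside 51.8% of 8625 genes. In the other clusters 22 to 29 of 32 members were. The count was 29 in cluster 3, beside 49.7% of all genes, 26 in cluster 2, beside 54.6%, and 25 in cluster 1, beside 51.4%. It was 24 in cluster 6, beside 46%, 23 in cluster 4, beside 56%, and 22 in cluster 5, beside 46.3%. Ero1l had ratios of 1.57 (1.41 to 1.75) in cluster 2 and 1.58 (1.37 to 1.83) in cluster 3. Over all cells the ratio of the summed other members between the 547 cells with and the 1345 without an Ndrg1 UMI was 1.43. The former were deeper, with a median of 12061 against 7688 UMIs. Depth was not matched inside clusters, and its part in these ratios was not tested.

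The cell cycle phase of a cell rests on scores over phase genes, and the calls did not always go with mitotic transcripts. In cluster 3, 32.3% of cells were called S or G2/M, but Mki67 and Top2a summed to 34.2 CPM there, against 731 CPM in the mitotic cluster 6, so no cycling is read from the calls alone. The cells called S (280) or G2/M (168) were at 10083 CPM and the 1444 others at 10226 CPM, a ratio of 0.986 (0.976 to 0.996). Without cluster 7, of which 61.9% of cells were so called, the ratio turned to 1.04 (1.03 to 1.05). Single genes differed more. Car9 was lower in the cells called S or G2/M, at 120 against 156 CPM, a ratio of 0.766 (0.698 to 0.841), and 0.830 without cluster 7. Higd1a was higher, at 248 against 204 CPM, a ratio of 1.22 (1.14 to 1.30), and Tpi1 had 1.11 (1.06 to 1.16). Aldoa had 0.886, and 0.962 without cluster 7.

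The wider pathway was read from 3 further lists, at the same minimum of 100 UMIs and the same fold of 1.5 between high-Ndrg1 and low-Ndrg1 cells. Of 8 regulators of HIF, 7 were abundant enough, 0 were past 1.5 in either direction and the median ratio was 1.11. Of all 8652 genes 5.84% were higher and 7.79% lower by this fold, so nothing is read from a count of 0 among 7. Cited2, which competes with HIF for its coactivator, was the highest at 188 CPM, with a ratio of 1.26 (1.15 to 1.38). Hif1a, the regulated HIF subunit, was at 82.1 CPM with a ratio of 0.962 (0.841 to 1.10). Egln2, the third oxygen sensor PHD1, was at 63.8 CPM with a ratio of 0.755 (0.642 to 0.887), the opposite direction to Egln1 and Egln3. Vhl, which marks hydroxylated HIF for destruction, had a ratio of 0.914, and Arnt, the HIF partner, 1.11, both with intervals that include 1.

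Of 22 other isozymes and transporters, 10 were abundant enough, 0 were higher by 1.5 and 2 lower, beside the same 5.84% and 7.79% of all genes, and the median ratio was 0.881. Bsg, the chaperone of the lactate transporters, was at 4281 CPM, above every member, with a ratio of 1.27 (1.25 to 1.29). Mpc1, of the mitochondrial pyruvate carrier, was at 129 CPM with 1.11 and Pdha1, of pyruvate dehydrogenase, at 86.3 CPM with 1.02. The lower ones were Bpgm, of the 2,3-bisphosphoglycerate bypass, with 0.655 (0.474 to 0.901) and Pdk3 with 0.567 (0.371 to 0.859). Pdk2, with an r among the highest of the list, had 1.33 (0.996 to 1.77). Slc2a3, Hk3 and Pklr, forms typical of other tissues, had 1 or 2 UMIs each.

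Of 20 further hypoxia-responsive genes, 13 were abundant enough, 2 were higher by 1.5 and 3 lower, again beside 5.84% and 7.79% of all genes, with a median ratio of 1.20. Mif was at 1565 CPM (ratio 1.40, 1.36 to 1.44), Fam162a at 379 CPM (1.48, 1.39 to 1.58) and P4hb, the shared subunit of the collagen prolyl hydroxylases, at 322 CPM (1.20, 1.13 to 1.29). The higher ones were Ak4, a mitochondrial adenylate kinase, with 1.62 (1.26 to 2.10) and Hmox1, heme oxygenase, with 1.92 (1.36 to 2.75). The lower ones were Edn1, endothelin, with 0.449 (0.371 to 0.541), Stc2, stanniocalcin, with 0.621 (0.514 to 0.749) and Tfrc, the transferrin receptor, with 0.383 (0.302 to 0.484).

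The motif shares were also set beside the Ndrg1 ratios of the members. ACGTG was in the promoter window of 12 of 15 members with a ratio of at least 1.5 and of 9 of 16 members under 1.5, with Adm left out. With GCGTG counted too, the numbers were 14 of 15 and 15 of 16. Of all genes with a window and at least 1000 UMIs, 28.1% had ACGTG and 67.8% either motif. Higd1a, Gapdh and Gpi1 were past 1.5 without ACGTG in these 250 bases, and Hk1 and Eno1 had GCGTG only. The counts describe these windows, and elements farther from the start were not searched.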

How the data were processed

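Single-cell RNA was measured in 1 wild type library. The deposited matrix holds raw UMI counts per gene and barcode, written by Cell Ranger 6.1.2 and mapped to GRCm38/mm10, per the labels and the submitters' processing notes. The annotation used was not given in the sources used here. UMIs of multiplexing tags did not enter library sizes. From the counts, CPM of summed UMIs, Clopper-Pearson and Poisson intervals and exact conditional binomial intervals of ratios were computed with scipy 1.17.1, at 95%.

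Cells were filtered at 500 genes and 20% mitochondrial UMIs. Scrublet marked 12 cells (0.634%), which were kept and removed in an alternative. Leiden clusters (scanpy 1.11.5, leidenalg 0.10.2, resolution 0.6, seed 0) used 2000 variable genes, 30 components and 15 neighbours, without the members, the further pathway, cell cycle, sex-linked and mitochondrial genes. With 1 library there was no test and no p-value, and a ratio of 1.5 served as the size rule.

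The members and gene lists were chosen with earlier results of these data known. Named genes are the members and, for each further list, those with the 3 highest levels and the 3 highest r with Ndrg1. Also named are the 10 genes most correlated with Ndrg1 outside the members and these lists, and 5 leading genes per cluster (minimum 50 UMIs, detected in 10% of its cells). Other pathway genes were named after their values were seen. A few genes that this rule names are not reported here. Coordinates are from GENCODE release M21 (GRCm38) and promoters from RefSeq (GRCm38.p6). The steps were tested on simulated data. Alternatives were other cell filters, thinning, means over cells, tags, cell groups, correlation measures and cluster settings.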

Additional observations from a re-analysis of the deposited data

Results flagged for a closer look

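The matrix also holds 12 multiplexing tags, oligonucleotides that mark the cells of 1 suspension, and the labels name no tag. They held 21.4% of all UMIs and are a signal outside the gene counts. In 55.7% of barcodes CMO301 had the most tag UMIs, in all others CMO302. What the tags stand for is not given in the labels, so they were not used as replicates. Among kept cells, 1062 had CMO301 and 830 had CMO302 as the highest tag. The summed members were at 10216 CPM (10157 to 10276) in the former and 10165 CPM (10099 to 10231) in the latter. The ratio of the summed other members between high-Ndrg1 and low-Ndrg1 cells was 1.550 and 1.498. Of 32 members, 13 had a ratio of at least 1.5 in both sets of cells and 30 a ratio above 1 in both, beside 2.84% and 34.1% of all 8647 genes. Ero1l had 3.18 (2.80 to 3.61) and 2.29 (2.02 to 2.60), intervals that did not meet, and this difference was not tested.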

How the results depend on the processing

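No paired analysis was possible because only 1 library was analysed. Thinning to 3000 UMIs moved each summary value. The summed level was then 10286 CPM, the summed ratio 1.27 and the number of members past 1.5-fold 7. Vegfa was the only called member with a ratio below 1, at 0.931. That ratio came from a mean of 0.123 UMIs per cell and had no interval. Under thinning the median r with Ndrg1 was 0.0745, the median pair r 0.0340 and the spread across clusters 1.89. Thinning leaves an Ndrg1 UMI in 239 of 459 cells of the high side. The summed level was 10305 CPM as a mean over cells and 10372 CPM without cluster 7. The summed ratio was 1.51 as a mean over cells, 1.498 in CMO302 cells, 1.81 between the highest and lowest 189 cells, 1.43 between cells with and without an Ndrg1 UMI and 1.57 per 1000000 UMIs outside ribosomal and mitochondrial genes, the latter 2 chosen after seeing the data. The median r with Ndrg1 was 0.166 in CMO302 cells and 0.0882 with cluster means taken out, where the median pair r was 0.0470. The spread across clusters was 1.95 in CMO301 and 2.81 in CMO302 cells, and 1.70 and 2.25 at resolutions 0.3 and 1.0. The cause of these moves was not tested. Of the 15 members past 1.5, Ero1l, Egln1 and Slc2a1 stayed past it under all 13 alternatives. Single ratios stayed inside their interval in 355 cases and left it in 60, beside Vegfa, and single levels in 282 and 33. Depth limits Adm, Plod2 and every zero of Ndrg1.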

Other observations

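The 5 genes with the lowest r with Ndrg1 among the 2173 genes with at least 1000 UMIs were named after their values were seen. Wfdc2, a secreted protease inhibitor of glandular epithelium, had r = -0.362 and was at 3390 CPM in high-Ndrg1 and 5331 CPM in low-Ndrg1 cells, a ratio of 0.636 (0.624 to 0.648). Gsta4, a glutathione transferase, had r = -0.332 and a ratio of 0.513 (0.486 to 0.541). Tmem176a, a membrane protein, was at 889 and 2121 CPM, a ratio of 0.419 (0.405 to 0.434). Anxa1, a calcium-binding annexin, had a ratio of 0.473 (0.448 to 0.498) and Aspa, an aminoacylase, 0.430 (0.392 to 0.470). These genes were lower where most members were higher.

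The cycling markers Mki67 and Top2a summed to 63.2 CPM (56.9 to 70.1) in high-Ndrg1 and 106 CPM (97.1 to 116) in low-Ndrg1 cells.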
